A study of Mus musculus with 27 samples.

Results

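Complement components and their regulators were followed in fetal mouse lung through a list of 7 genes, namely Hc, Cfi, C3, Cfb, Cfd, C4b and Serping1. The genes were chosen for opposing changes of components and regulators across the 3 groups in these same arrays. The differences of the listed genes from Control are therefore given as a description and carry no test. Of the listed genes analysed below, only the regulator Cfi rose, whereas the regulator Serping1 fell with the components Hc, Cfb and C4b. A probe was named for 5 of the 7 genes, all 5 were kept after a detection filter, and 11945 genes were kept in all. C3 and Cfd are not analysed here.

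The lungs were left lobes of male fetuses of C57BL/6 X BALBc mice at day 18 of gestation, hybridised as pools to Illumina bead arrays. In EG in vitro, blastocysts that had developed in culture were transferred into pseudopregnant females. In EG in vivo, the blastocysts had developed in the mother and were then transferred in the same way. Control fetuses developed in naturally ovulating females with no transfer, so both transfer groups differ from Control in the transfer itself and differ from each other in where the blastocyst formed. Each group held 3 pools with 3 technical arrays each, which were averaged, so n = 3 pools. The labels do not give the number of fetuses in a pool, the strain of the recipients or whether pools came from separate litters, so p-values measure only the spread between these pools.

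Complement is a cascade of blood and tissue proteins that marks and destroys microbes and damaged cells. The classical, lectin and alternative pathways each build an enzyme that cleaves C3 and then C5, and the C5 fragment starts assembly of the membrane attack complex from the terminal components. Regulators hold the cascade in check, some by blocking its first proteases and others by inactivating C3b and C4b or by protecting host membranes. The liver makes most plasma complement, and lung epithelium and macrophages also make components.

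Across the 27 arrays the median signal per array ranged from 113 to 170 and between 19762 and 23449 of 45281 probes were detected. Arrays of 1 pool correlated at 0.989 to 0.996. The replicate 3 pools of all 3 groups had lower median signals (117 to 122) than the other pools (145 to 167). 1 library went against its label: Xist, the RNA of the inactive X chromosome, stood at a log2 level of 10.90 in Control replicate 1 and at 4.56 to 5.45 in the other 8 pools, although the Y-linked gene Eif2s3y was at 11.53 in that pool. The values of Hc and Cfi, the counts of called genes and the calls named here that changed are therefore also given without Control replicate 1. The lung identity gene Nkx2-1 was high in every pool (13.06 to 13.60).

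The stretch just before the annotated start is shown for 3 genes: Hc, which had the largest difference from Control among the listed genes, C6, which fell most among the other complement genes, and Masp2, which went the other way. The bases are RefSeq's for build GRCm38.p6, 5′ to 3′, and capitals mark a motif match.
Hc (chr2:35061413-35061662, minus strand): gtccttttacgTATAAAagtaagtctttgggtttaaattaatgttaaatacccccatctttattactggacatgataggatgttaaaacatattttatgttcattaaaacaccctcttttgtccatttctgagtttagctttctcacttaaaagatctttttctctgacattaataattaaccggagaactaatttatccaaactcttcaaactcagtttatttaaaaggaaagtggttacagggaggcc
C6 (chr15:4726960-4727209, plus strand): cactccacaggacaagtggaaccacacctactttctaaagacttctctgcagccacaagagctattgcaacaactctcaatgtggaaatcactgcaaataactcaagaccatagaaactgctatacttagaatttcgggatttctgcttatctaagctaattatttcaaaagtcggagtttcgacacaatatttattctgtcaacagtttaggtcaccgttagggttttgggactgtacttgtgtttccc
Masp2 (chr4:148602294-148602543, plus strand): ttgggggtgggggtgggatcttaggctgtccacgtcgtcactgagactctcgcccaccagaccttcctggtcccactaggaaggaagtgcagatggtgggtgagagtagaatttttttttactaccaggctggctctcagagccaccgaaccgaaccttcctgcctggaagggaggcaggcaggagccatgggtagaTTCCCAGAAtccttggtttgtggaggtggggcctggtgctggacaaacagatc
4 motifs were searched on both strands: TTCNNNGAA, bound by STAT factors, in 7.02% of 32851 promoters of this length; a pair of GAAA runs with any 2 bases between them, bound by interferon regulatory factors, in 2.98%; TTGCNNAA, bound by C/EBP factors, in 9.56%; and TATAAA, the TATA box, in 12.4%. Hc held TATAAA 239 bases before the start, Masp2 held TTCCCAGAA 53 bases before the start, and none of the 4 motifs was found in the C6 stretch. Each match is a description of these letters.

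Hc encodes complement C5, the component from which the cascade forms its inflammatory fragment and its membrane attack complex. It was far lower in both transfer groups than in Control lungs. On the log2 scale, probe ILMN_2659143 read 6.42, 6.12 and 5.93 in EG in vitro pools, 6.07, 6.13 and 6.42 in EG in vivo pools, and 11.11, 11.50 and 10.65 in Control pools. Every transfer pool lay at least 4.23 log2 units below the lowest Control pool. The mean was 6.16 ± 0.25 in EG in vitro, 6.21 ± 0.19 in EG in vivo and 11.09 ± 0.42 in Control (SD, n = 3 pools each). EG in vitro differed from Control by a log2 value of -4.93 ± 0.23 (SE), and EG in vivo by -4.88 ± 0.23, which is 30.5-fold and 29.4-fold lower. All 9 arrays of each group detected the probe. Without Control replicate 1, the log2 differences were -4.92 and -4.87.

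Cfb encodes factor B, the protease part of the alternative pathway's C3-cleaving enzyme. Probe ILMN_1230853 had log2 levels of 5.69, 5.07 and 4.86 in EG in vitro pools, 4.56, 5.04 and 4.90 in EG in vivo pools, and 6.80, 7.82 and 6.03 in Control pools. Control pools were the most spread of any listed gene, yet all 3 lay above every transfer pool. The probe was detected on 3 of 9 EG in vitro arrays, all of replicate 1, on 0 of 9 EG in vivo arrays and on 9 of 9 Control arrays. Cfb was therefore at least 2.96-fold lower in EG in vivo than in Control, set against the lowest detected signal per array. In EG in vitro, with the probe detected in 1 of 3 pools, it was at least 2.83-fold lower on the same basis.

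C4b encodes complement C4, which joins C2 in the C3-cleaving enzyme of the classical and lectin pathways. Probe ILMN_3049559 read 5.45, 5.44 and 5.82 in EG in vitro pools, 5.50, 5.64 and 5.41 in EG in vivo pools, and 5.81, 6.17 and 6.01 in Control pools. EG in vitro replicate 3 overlapped the lowest Control pool, whereas all EG in vivo pools lay below Control. EG in vitro differed from Control by a log2 value of -0.43 ± 0.15 (SE), and EG in vivo by -0.48 ± 0.15. The level is near the detection limit, with 7, 8 and 9 of 9 arrays detected in EG in vitro, EG in vivo and Control, and C4b has a near-identical copy, C4a; whether the probe tells them apart was not tested.

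Serping1 encodes C1 inhibitor, which blocks the first proteases of the classical and lectin pathways. Probe ILMN_2913166 read 10.01, 10.28 and 10.38 in EG in vitro pools, 10.29, 10.23 and 10.74 in EG in vivo pools, and 12.08, 12.08 and 12.55 in Control pools. No transfer pool came within 1.34 log2 units of Control. EG in vitro differed from Control by a log2 value of -2.02 ± 0.20 (SE), and EG in vivo by -1.82 ± 0.20, or 4.04-fold and 3.53-fold lower. A second Serping1 probe, ILMN_2775421, averaged 9.87 in EG in vitro, 10.03 in EG in vivo and 11.89 in Control.

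Cfi encodes factor I, the protease that cuts C3b and C4b into inactive forms with the help of cofactors. It was the 1 listed gene that stood higher in the transfer groups. Probe ILMN_2631704 read 9.25, 9.15 and 9.36 in EG in vitro pools, 9.30, 9.34 and 9.11 in EG in vivo pools, and 5.63, 5.80 and 5.68 in Control pools. The 6 transfer pools fell within 0.25 log2 units of each other and at least 3.30 above the highest Control pool. EG in vitro differed from Control by a log2 value of 3.55 ± 0.12 (SE), and EG in vivo by 3.54 ± 0.12, 11.7-fold each. All 9 arrays of each group detected Cfi, and the differences without Control replicate 1 were 3.51 in both groups.

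**Figure D1:**
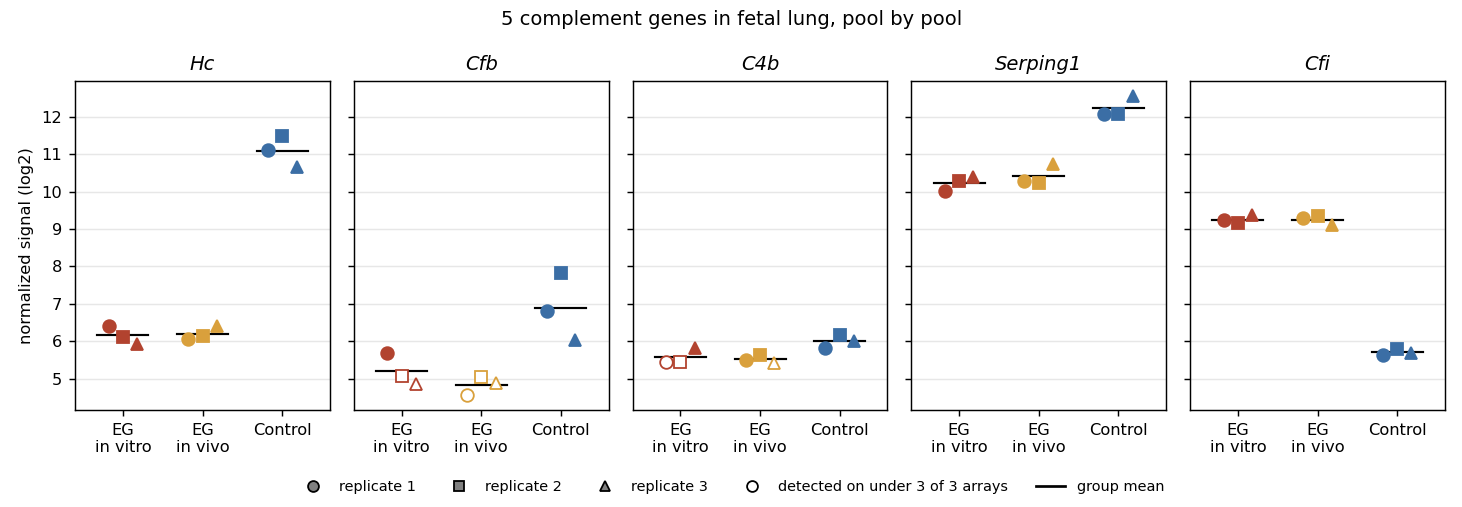
Log2 level (background corrected and quantile normalized) of 5 complement genes, 1 panel a gene. Points are pools, lines are group means and filled points mark pools detected on all 3 arrays; Hc, Cfb, C4b and Serping1 sit lower in EG in vitro and EG in vivo than in Control on average, and Cfi sits higher.

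Against Control, the EG in vitro pools did not overlap the Control pools for 4 of the 5 listed genes, 1 higher and 3 lower, where 57.4% of all 11945 genes did not overlap (28.6% higher and 28.8% lower). The EG in vivo pools did not overlap for 5 of 5, 1 higher and 4 lower, where 53.3% of all genes did not (28.1% higher and 25.2% lower). Both comparisons share the Control pools, and the genes were chosen on these contrasts, so nothing is read from these counts. Between EG in vitro and EG in vivo, the pools overlapped for all 5 genes, where 5.42% of all genes did not overlap (1.17% higher and 4.24% lower). The EG in vitro minus EG in vivo log2 difference was -0.05 ± 0.23 (SE) for Hc, 0.00 ± 0.12 for Cfi, 0.05 ± 0.15 for C4b and -0.20 ± 0.20 for Serping1. For Cfb, which was near or below the detection limit in both transfer groups, no difference is given.

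Most other complement genes that passed the test were lower in the transfer groups, but the detection filter bears on this. C6, C7, Mbl1, C4a, C1s2, Itgb2, Vtn, Cpn2 and Fcnb were kept through Control alone, so they could hardly be called higher. Masp2 was kept through the transfer groups alone, and Fcna through EG in vitro alone. Nothing is therefore read from the balance of directions or from the medians. Of 54 other symbols, 49 had a probe and 30 were kept. In EG in vitro 2 rose, 15 fell and 13 did not pass (limma, Benjamini-Hochberg adjusted p under 0.05 over all kept probes), which is 56.7% called against 44.8% of all genes (21.8% higher and 23% lower), with a median log2 difference of -0.49 against 0.03. In EG in vivo 2 rose, 16 fell and 12 did not pass, 60% called against 43.4% of all genes (22.2% higher and 21.2% lower), with a median of -0.52 against 0.04. Without Control replicate 1 the counts were 1 higher and 14 lower in EG in vitro and 2 higher and 16 lower in EG in vivo. The EG in vitro count of lower genes was 9 without EG in vitro replicate 2.

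**Figure D2:**
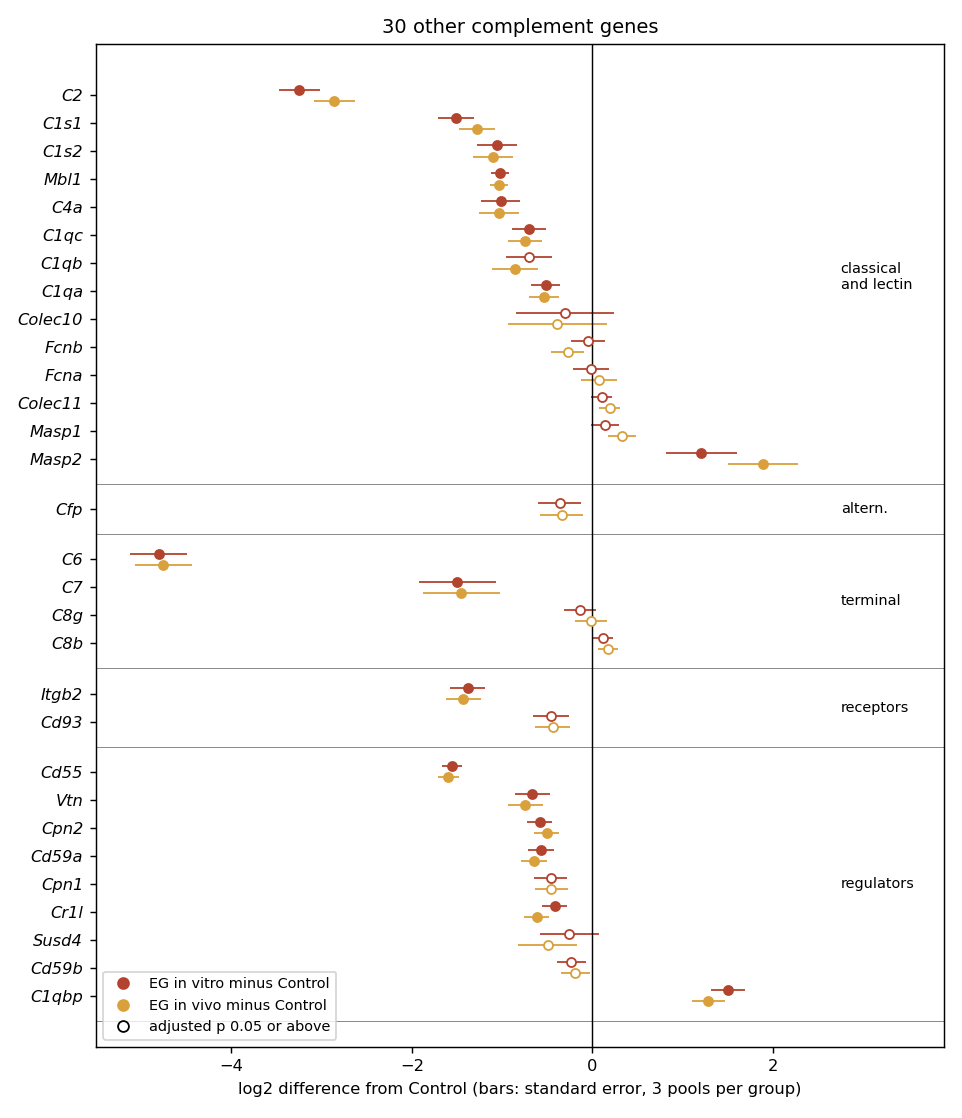
Log2 difference from Control of 30 other complement genes, with EG in vitro and EG in vivo side by side and bars for the standard error. Filled points passed the limma test; C6 and C2 lie furthest below 0, and C1qbp and Masp2 lie above it.

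Among 14 kept genes of the classical and lectin pathways, 1 rose and 7 fell in EG in vitro, and 1 rose and 8 fell in EG in vivo. That is 57.1% called against 44.8% of all genes in EG in vitro, and 64.3% against 43.4% in EG in vivo. C2 supplies the protease of the C3-cleaving enzyme shared by these pathways. It read 5.87, 6.45 and 6.34 in EG in vitro pools, 6.33, 6.43 and 7.04 in EG in vivo pools, and 9.37, 9.36 and 9.66 in Control pools. All transfer pools were below all Control pools, and the log2 difference was -3.25 (adjusted p = 1.78e-05) in EG in vitro and -2.86 (adjusted p = 3.76e-05) in EG in vivo. C1s1, a copy of the C1s protease of the first complex, fell by 1.51 on the log2 scale in EG in vitro (adjusted p = 0.000487, limma) and 1.28 in EG in vivo (adjusted p = 0.0013), although it was detected on only 4 and 6 of 9 arrays there. C1s2 was detected on 2 of 9 arrays in each transfer group and fell as well (adjusted p = 0.00583 and 0.00501).

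C1q, the recognition molecule of the classical pathway, is built from 3 chains whose genes were named after their values were seen. C1qa fell in both transfer groups (log2 difference -0.52 and -0.53, adjusted p = 0.0341 and 0.0309), but the call was lost under 8 of 20 alternatives in EG in vitro, with adjusted p up to 0.13, and under 6 in EG in vivo, with adjusted p up to 0.12. C1qc also fell in both (-0.71 and -0.75, adjusted p = 0.017 and 0.0136). C1qb was at -0.70 (adjusted p = 0.0575) in EG in vitro and fell by 0.86 in EG in vivo (adjusted p = 0.0267). In EG in vitro it passed with the replicate block (adjusted p = 0.00188) and without Control replicate 1 (adjusted p = 0.0461), and it did not pass between the transfer groups.

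Masp2, the lectin pathway protease that cuts C4 and C2, was the gene of these pathways that rose. It read 5.59, 6.21 and 7.03 in EG in vitro pools, 6.71, 6.51 and 7.66 in EG in vivo pools, and 5.19, 4.94 and 5.07 in Control pools. Every transfer pool was above every Control pool, and replicate 3 was the highest of its group in both transfer groups. The log2 difference was 1.21 (adjusted p = 0.0379, limma) in EG in vitro and 1.89 (adjusted p = 0.0055) in EG in vivo, with 4 of 9 Control arrays detected. The EG in vitro call was lost under 10 of 20 alternatives, with adjusted p values up to 0.132, and was lost without Control replicate 1 (adjusted p = 0.0755). The probes of Masp2 did not share a direction in EG in vitro: these values are those of ILMN_1216142, whereas ILMN_1260242, detected on 0 of 9 EG in vitro arrays, averaged 4.91 in EG in vitro, 5.70 in EG in vivo and 5.03 in Control. A further kept probe, ILMN_3101073, averaged 5.43 in EG in vitro, 5.65 in EG in vivo and 5.09 in Control.

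Cfp encodes properdin, which stabilises the alternative pathway enzyme, and did not pass: its log2 difference was -0.36 (adjusted p = 0.266, limma) in EG in vitro and -0.34 (adjusted p = 0.305) in EG in vivo. In a fit with the replicate block, Cfp fell in both (adjusted p = 0.0168 for EG in vitro and 0.0231 for EG in vivo).

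Of the 4 kept terminal genes, 2 fell in each transfer group. C6, which binds activated C5 to begin the membrane attack complex, read 4.70, 4.64 and 4.45 in EG in vitro pools, 4.76, 4.49 and 4.70 in EG in vivo pools, and 8.93, 9.02 and 10.26 in Control pools. It was detected on 0 of 9 arrays of each transfer group and on all 9 Control arrays, so C6 was at least 18.3-fold lower in EG in vitro (adjusted p = 1.44e-05, limma) and at least 17-fold lower in EG in vivo (adjusted p = 1.78e-05). C7, the next protein of that complex, was detected on 0 of 9 arrays of each transfer group and on 7 of 9 Control arrays. It was at least 1.85-fold lower in EG in vitro (adjusted p = 0.0225) and at least 1.72-fold lower in EG in vivo (adjusted p = 0.026), and Control replicate 3, at 7.28, was far above Control replicates 1 and 2, at 5.36 and 5.65.

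Of 9 receptor genes, 2 were kept. Itgb2, the shared chain of complement receptors 3 and 4 on leukocytes, read 5.18, 5.15 and 5.14 in EG in vitro pools, 4.96, 4.98 and 5.41 in EG in vivo pools, and 6.16, 6.69 and 6.77 in Control pools. All transfer pools were below Control, and Itgb2 was detected on 3 of 9 EG in vitro arrays and 2 of 9 EG in vivo arrays. It was at least 2.44-fold lower in EG in vitro (adjusted p = 0.000612, limma) and 2.27-fold lower in EG in vivo (adjusted p = 0.000554). The receptors of the C3a and C5a fragments, C3ar1 and C5ar1, were not kept.

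Of 9 kept regulators other than the listed genes, 1 rose and 5 fell in each transfer group. Cd55, which dismantles C3-cleaving enzymes on host membranes, read 7.85, 8.02 and 7.90 in EG in vitro pools, 8.0, 7.91 and 7.74 in EG in vivo pools, and 9.42, 9.53 and 9.48 in Control pools. The groups did not overlap, and Cd55 fell by 1.56 on the log2 scale in EG in vitro (adjusted p = 2.18e-05, limma) and by 1.59 in EG in vivo (adjusted p = 2.3e-05). Cd59a, which blocks the membrane attack complex, fell by 0.57 in EG in vitro (adjusted p = 0.0133) and by 0.65 in EG in vivo (adjusted p = 0.00737).

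C1qbp, a mitochondrial protein that also binds C1q, was the regulator that rose. It read 10.18, 10.38 and 10.49 in EG in vitro pools, 10.14, 10.01 and 10.26 in EG in vivo pools, and 8.66, 8.63 and 9.26 in Control pools. All transfer pools were above all Control pools, and the group mean was higher than that of Control by 1.5 on the log2 scale in EG in vitro (adjusted p = 0.000342, limma) and by 1.29 in EG in vivo (adjusted p = 0.000871). Vtn, the plasma protein vitronectin, was detected on 1 of 9 arrays of each transfer group and was at least 1.26-fold lower in EG in vitro (adjusted p = 0.0242) and at least 1.2-fold lower in EG in vivo (adjusted p = 0.0155). Its EG in vitro call was lost without Control replicate 1 (adjusted p = 0.052).

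**Figure D3:**
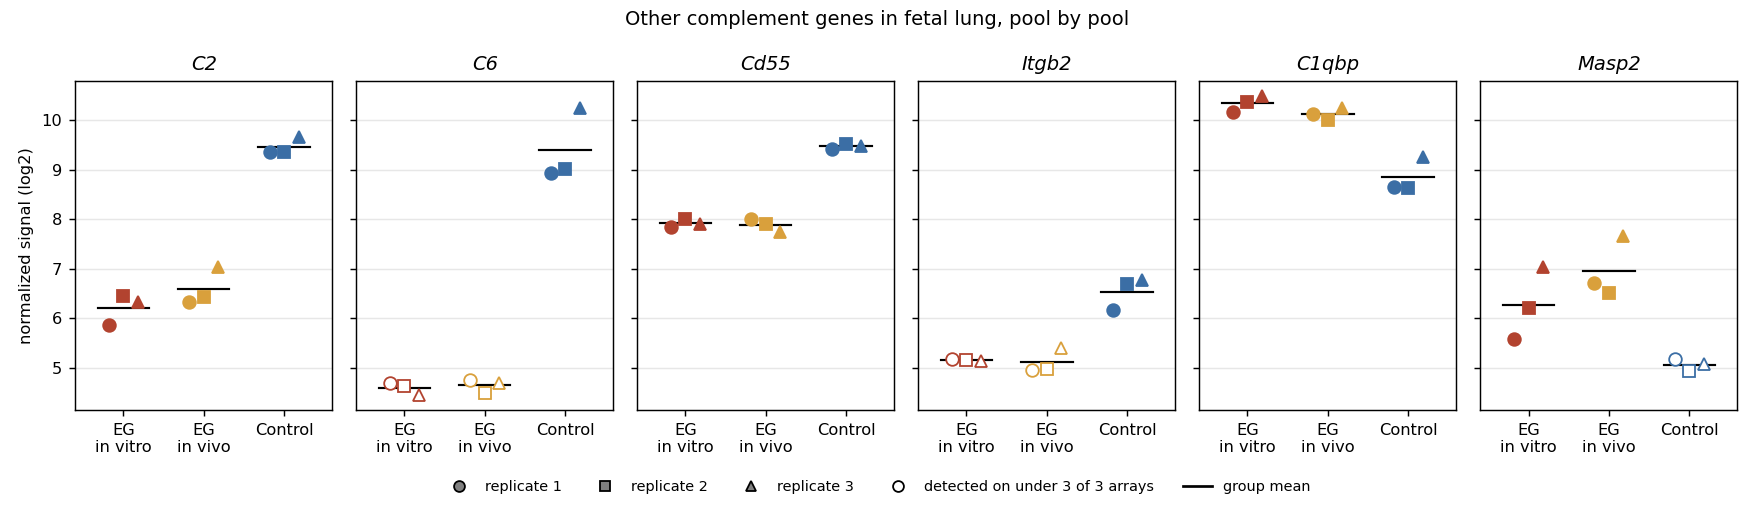
Log2 level by pool of the other complement genes C2, C6, Cd55, Itgb2, C1qbp and Masp2, each called in both transfer groups. Points are pools, filled where all 3 arrays detected the probe, and lines are group means; C2, C6, Cd55 and Itgb2 sit lower in both transfer groups than in Control, while C1qbp and Masp2 sit higher.

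No complement gene passed between EG in vitro and EG in vivo. limma called 0 of 22958 probes in that contrast, where 285 had an unadjusted p under 0.05, and 0 of the 30 complement genes did. With the pool as a random block limma called 1 probe, and with array weights 2. For C2 the EG in vitro minus EG in vivo log2 difference was -0.38 ± 0.23 (SE), and for Masp2 it was -0.68 ± 0.39.

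The 4 nearest kept coding genes on each side of the listed genes came to 36 genes. Among them, Traf1, Gsn, Cutal and Slc43a3 were kept through Control alone, so they could hardly be called higher. In EG in vitro 7 rose and 10 fell (limma), which is 47.2% called against 44.8% of all genes, and in EG in vivo 8 rose and 10 fell, 50% called against 43.4%, so neighbours passed about as often as genes in general. Traf1, a signalling adaptor of the tumour necrosis factor receptors, is the nearest kept coding gene on one side of Hc. It read 5.17, 5.10 and 4.81 in EG in vitro pools, 4.93, 5.02 and 4.93 in EG in vivo pools, and 9.71, 9.38 and 10.00 in Control pools. Traf1 was detected on 3 of 9 EG in vitro arrays, 0 of 9 EG in vivo arrays and all Control arrays, and its transfer pools all lay below Control. It was at least 21.6-fold lower in EG in vitro (adjusted p = 2.05e-06) and at least 20.8-fold lower in EG in vivo (adjusted p = 2.29e-06). On the other side of Hc, Rab14 did not pass (-0.21 and -0.14), and Gsn, the next gene, was detected on 0 arrays of both transfer groups and was at least 4.73-fold lower in EG in vitro and at least 4.39-fold lower in EG in vivo. Cfb lies between Nelfe, which rose by 0.78 in each transfer group, and C2, which fell. C4b lies between Tnxb, which fell by 1.06 and 1.08, and Stk19, which did not pass (-0.23 and -0.19). Serping1 lies between Clp1, which did not pass (0.09 and 0.17), and Ube2l6, which fell by 1.38 and 1.40. Beside Cfi, Gar1 rose by 1.72 and 1.71 and Pla2g12a fell by 1.28 and 1.13.

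**Figure D4:**
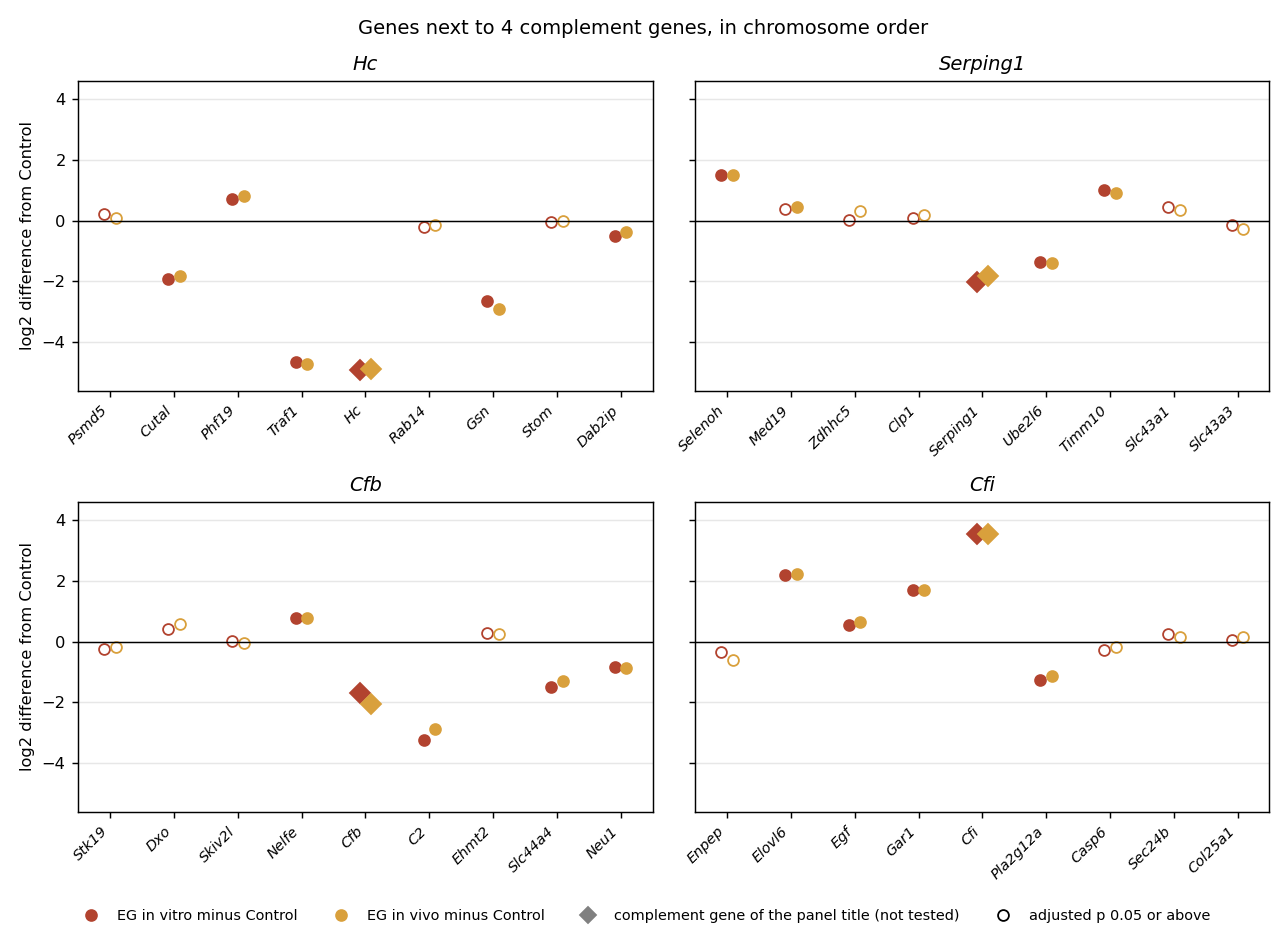
Log2 difference from Control of the genes next to 4 complement genes, in chromosome order, for EG in vitro and EG in vivo. Filled circles passed the limma test, and diamonds are the gene of the panel title, which was not tested; Traf1 beside Hc and Elovl6 near Cfi lie furthest from 0 among the neighbours of those 2 genes.

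The genes whose 9-pool profiles lay nearest to Hc, among 11940 compared by the root mean square difference of centred log2 profiles, were Scd1 (0.221), 3300002A11Rik (0.265), Chil3 (0.280), Cblif (0.291) and Pnliprp1 (0.297). Nearest to Cfi were Adamts18 (0.173), Mcm10 (0.238), Dctd (0.239), Septin3 (0.241) and H3c1 (0.260).

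Many markers of cell types that make or respond to complement were lower in the transfer groups, but the detection filter bears on this too. Irf7 and Isg15 (interferon response), Marco (macrophage), Retnlg (granulocyte) and Scgb3a1 (club cell) were kept through Control alone. They could hardly be called higher, so nothing is read from the balance of directions. Hepatocyte markers did not pass, and fibroblast and erythroid markers were split. The part of these markers in the results was not tested. In bulk tissue, fewer cells of a type and less RNA per cell cannot be told apart. The share of all genes called lower was 23% for EG in vitro, and for EG in vivo it was 21.2%. Of 10 alveolar type II genes 9 fell in each transfer group, with a summed level of 19384 to 22407 in EG in vitro, 22591 to 29593 in EG in vivo and 96101 to 103844 in Control. Of 6 macrophage and monocyte genes 5 fell in each, with sums of 2137 to 3492 in EG in vitro, 2585 to 3262 in EG in vivo and 15418 to 26082 in Control. All 10 interferon response genes fell in each, with sums of 1964 to 2501 in EG in vitro, 2171 to 3950 in EG in vivo and 7883 to 9895 in Control.

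Club cell genes fell in 4 of 4 and granulocyte genes in 4 of 4 in each transfer group. Mesothelial genes fell in 3 of 4 in EG in vitro and 4 of 4 in EG in vivo, and general epithelial genes in 3 of 6 in each, which is 50% called against 44.8% and 43.4% of all genes. Fibroblast genes were split, with 2 higher and 2 lower of 7 in each, and erythroid genes had 2 higher and 1 lower of 4. The adipocyte list kept 1 gene, Pparg, which fell in EG in vitro. Of 9 kept hepatocyte genes none passed in either transfer group (limma; 4 of the EG in vitro differences and 0 of the EG in vivo ones had an unadjusted p under 0.05), and their sums ranged from 480 to 4089 in EG in vitro, 412 to 1522 in EG in vivo and 353 to 594 in Control. EG in vitro replicate 1 stood apart at the top of that range, with Afp at 11.00, Ahsg at 9.40 and Ttr at 9.31, against 6.51, 6.12 and 6.42 in EG in vitro replicate 3. It was also the EG in vitro pool in which Cfb was detected. Other pools did not pair the 2: Afp was at 8.88 in EG in vitro replicate 2 and 9.22 in EG in vivo replicate 2. Cfb was detected on 0 arrays of either pool, and on all 9 arrays of Control. A link between Cfb and these markers was not tested. Alb and Fgb were detected on 0 arrays, but other genes of the list were detected. In EG in vitro, EG in vivo and Control, Fgg was detected on 8, 5 and 8 of 9 arrays. Ahsg was detected on 9, 8 and 9. Afp ranged from 6.51 to 11.00 in EG in vitro, 6.23 to 9.22 in EG in vivo and 4.78 to 7.11 in Control, with overlapping groups.

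**Figure D5:**
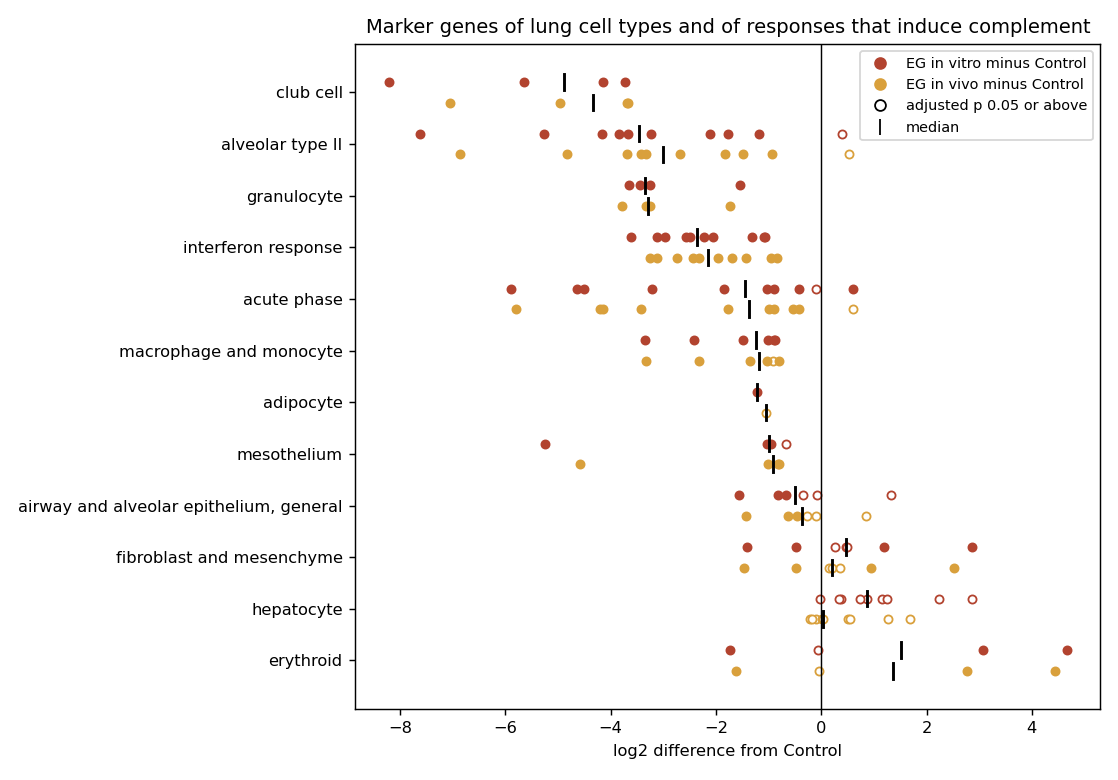
Log2 difference from Control of each kept gene of the marker lists, for EG in vitro and EG in vivo, with filled points past the limma test and a black bar at each list's median. Alveolar type II, club cell, granulocyte and interferon response genes lie mostly below 0, and most hepatocyte genes lie above 0 in EG in vitro.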

How the data were processed

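RNA of 9 pools was hybridised in 3 technical arrays each. The authors deposited the intensity of each probe without normalization, with a detection p-value per array, per the file headers, and a processed matrix of quantile normalized intensity. The scanner software is not given in these sources. Probes were named from the platform annotation: 34885 of 45281 had 1 symbol, 18 several and 10378 none, and 34807 matched RefSeq. From the deposited intensity, log2 values were computed with neqc of limma 3.58.1 (R 4.3.3; offset 16), and probes with detection p under 0.05 on at least 6 of 9 arrays of a group were kept (22958). Technical arrays were averaged, lmFit and eBayes were fitted over the 3 groups, and p-values were Benjamini-Hochberg adjusted across the kept probes (threshold 0.05). A gene was its kept probe with the highest mean.

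The number of arrays limits the precision. Pools of 1 replicate number deviated together, with correlations of 0.503 to 0.827 between groups, which is seen in the data and not the labels. The main fit did not use this pairing, so its p-values are unpaired. A fit with the replicate block was run as an alternative. It called 12799 probes in EG in vitro, against 9292 in the main fit, and 12471 against 9011 in EG in vivo. The listed genes and all lists were chosen with earlier results of these data known. Named are the 4 called genes of each role list with the largest difference and up to 2 in the less common direction, the 2 highest where none passed, and the 5 genes nearest to Hc and Cfi. Alternatives covered the offset, scaling, the authors' matrix, detection filters, random and replicate blocks, array weights, probe averaging and leaving out pools, with dim and bright pools as a block added after seeing the data. The script was tested on simulated data. Listed genes received no test.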

Additional observations from a re-analysis of the deposited data

How the results depend on the processing

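Single genes were followed under the alternatives for 23 genes, the listed genes and named complement genes. Neighbours, markers and acute phase genes were not followed. For the 23, no difference from Control changed sign under any alternative run. Between EG in vitro and EG in vivo, where none passed, 14 of 23 differences took the other sign under at least 1. Values of the listed genes, none tested, shrank with a background offset of 50: the EG in vitro and EG in vivo values were -4.38 and -4.35 for Hc and 2.90 and 2.90 for Cfi, and in EG in vivo Cfb was -1.31 and C4b -0.29, with 1 other complement gene higher in EG in vitro. In the authors' processed matrix, which has no background subtraction, Hc was -3.60 and -3.58, Cfi 2.09 and 2.09, Cfb -0.66 and -0.80, and C4b -0.13 and -0.15, with 1 gene higher in EG in vitro. With array weights 4 genes were higher in each transfer group and 23 lower in EG in vitro; for EG in vivo, Cfi was 3.67 and C4b -0.28. With replicates 1 and 2 only, Hc was -5.20 in EG in vivo. With the mean of a gene's probes, 1 gene was higher in EG in vitro. Leaving out 1 pool at a time gave 1 to 2 higher and 9 to 17 lower genes in EG in vitro, and 2 higher and 12 to 16 lower in EG in vivo. With the replicate block, 2 genes were higher and 19 lower in each transfer group, Cfp passed in both and C1qb also in EG in vitro (adjusted p = 0.00188, limma). Calls of C1qa, C1qb, C1qc, C1s1, C7, Cd59a, Cr1l, Masp2 and Vtn were lost under at least 1 alternative in at least 1 group; the cause was not tested. Dim probes near the detection limit, such as C4b, Cfb and Vtn, have the least signal over background.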

Other observations

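Most kept acute phase genes, which the liver and inflamed epithelium are known to make alongside complement, were called lower. The detection filter bears on this too. Lcn2, Itih4, Saa3 and Il1b were kept through Control alone, which leaves little room for a higher call. Of 10 kept, 1 rose and 8 fell in EG in vitro, and 0 rose and 9 fell in EG in vivo. That is 90% called in each against 44.8% and 43.4% of all genes. Nothing is read from the balance of directions or from the share called. Cebpd, a transcription factor of the acute phase response, was higher by 0.61 on the log2 scale in EG in vitro (adjusted p = 0.0445, limma). In EG in vivo it was at 0.59 (adjusted p = 0.0507). These values are those of ILMN_2707363, and the probes of Cebpd did not share a direction. A second kept probe, ILMN_2588570, averaged 5.83 in EG in vitro, 5.66 in EG in vivo and 6.70 in Control. Hpx did not pass in EG in vitro. Lcn2, an iron-sequestering defence protein, was detected on 0 of 9 EG in vitro and 1 of 9 EG in vivo arrays and was at least 40.8-fold lower in EG in vitro and 37.2-fold lower in EG in vivo than in Control (adjusted p = 2.96e-06 and 3.69e-06, limma). Hp, haptoglobin, fell by 4.64 on the log2 scale in EG in vitro and by 4.15 in EG in vivo, and Cp, ceruloplasmin, fell by 4.51 and by 4.20.

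The kept Masp2 probes differed among themselves. Probe ILMN_1260242 was detected on 0 of 9 EG in vitro arrays, 9 of 9 EG in vivo arrays and 3 of 9 Control arrays, whereas probe ILMN_1216142, used above, was detected on 9, 9 and 4. Probe ILMN_3101073 was detected on 6, 7 and 3, and its mean was above Control in both transfer groups.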
